A study of Mus musculus with 6 samples.

Results

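Transcripts that mark macrophages, lymphocytes, neutrophils and mast cells were examined in mouse calf muscle that overexpresses integrin alpha7, a chain of a receptor through which muscle fibres hold on to laminin. The markers were taken by gene name from a fixed list of 38 genes, which was drawn up with earlier results of these data known. Of these, 37 genes were measured, by 62 probe sets that each carry a single gene symbol, out of 18193 genes and 45037 probe sets on the array. There were 13 macrophage, 13 lymphocyte, 7 neutrophil and 4 mast cell genes. The lymphocyte kinase gene Lck had no match among probe sets of a single symbol and was not analysed here. Where a gene had several probe sets, which was so for 10 genes, the one with the highest mean signal over the 6 arrays stands for the gene unless another is named.

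Each genotype was represented by 3 Affymetrix arrays, and each array by a pool of RNA from 6 animals, so that 18 transgenic and 18 wild type animals were sampled. All animals were non-fasted females aged 5 weeks on an SJ6/C57BL6 background, and the muscle was gastrocnemius with soleus in the basal state. The transgenic animals carried the genotype label integrin alpha7 transgenic, and the sources used here do not give the promoter that drives the transgene. The titles of the wild type arrays also hold the word intronic, which is not explained there. Arrays are named below by genotype and replicate number.

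Healthy skeletal muscle holds a small population of immune cells between its fibres. Most are macrophages of the connective tissue sheaths, which clear debris, secrete complement and support repair, and mast cells lie along vessels and nerves. Lymphocytes and neutrophils are few at rest and are also carried in by blood left in the vessels and by any lymph node taken with the tissue. In whole muscle RNA, fewer cells of a type and less RNA per cell cannot be told apart.

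The labels and the tissue were checked first. Itga7 itself averaged 292 ± 32.7 on the wild type and 2238 ± 228 on the transgenic arrays (SD, n = 3 each), and the fibre genes Acta1 and Ckm lay at 18727 or more on every array. The leukocyte surface phosphatase Ptprc, also called CD45, lay between 446 and 556 on all 6 arrays. Medians of all signals were 34.0 to 38.4 per array, the arrays correlated at 0.971 to 0.981 over the probe sets tested, and no array stood apart.

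The start of the gene is shown for 2 neighbouring neutrophil genes, because their signals peaked on the same arrays, and for Cybb, because it is a macrophage gene whose groups did not overlap. S100a8 and S100a9 lie beside each other on chromosome 3 and encode the 2 chains of calprotectin, a calcium-binding antimicrobial protein of neutrophil cytosol. Cybb encodes the catalytic subunit of the phagocyte NADPH oxidase. Each window runs from 250 bases before to 50 after the start of the gene, read 5′ to 3′ on the gene's strand, in RefSeq's annotation of GRCm38.p6. The windows are chr3:90668821-90669120 on the plus strand for S100a8, chr3:90695672-90695971 on the minus strand for S100a9 and chrX:9469275-9469574 on the minus strand for Cybb. Capitals mark 2 short motifs on either strand, GAGGAA (the core that the myeloid factor PU.1 and other ETS factors bind) and TATAAA (the TATA box).
S100a8: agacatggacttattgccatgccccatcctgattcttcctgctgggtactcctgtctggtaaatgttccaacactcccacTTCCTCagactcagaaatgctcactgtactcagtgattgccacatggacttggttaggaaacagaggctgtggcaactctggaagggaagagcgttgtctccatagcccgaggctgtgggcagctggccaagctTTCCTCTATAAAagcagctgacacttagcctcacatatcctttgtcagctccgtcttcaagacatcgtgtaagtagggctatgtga
S100a9: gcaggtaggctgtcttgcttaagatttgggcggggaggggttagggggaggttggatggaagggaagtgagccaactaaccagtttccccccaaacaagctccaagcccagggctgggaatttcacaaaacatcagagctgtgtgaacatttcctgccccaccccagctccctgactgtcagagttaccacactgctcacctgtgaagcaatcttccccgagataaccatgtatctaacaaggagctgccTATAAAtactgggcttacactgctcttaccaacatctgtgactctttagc
Cybb: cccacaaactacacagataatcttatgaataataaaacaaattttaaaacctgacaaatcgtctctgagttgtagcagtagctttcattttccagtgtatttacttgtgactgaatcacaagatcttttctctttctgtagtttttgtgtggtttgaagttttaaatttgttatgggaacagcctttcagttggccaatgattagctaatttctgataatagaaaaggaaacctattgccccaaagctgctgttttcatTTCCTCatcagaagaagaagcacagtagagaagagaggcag
The S100a8 window held 2 GAGGAA matches and 1 TATAAA match, and there the motifs abut without overlap. S100a9 held 1 TATAAA match, and Cybb held 1 GAGGAA match. Among 29 of the listed genes with such a window, 18 held GAGGAA and 6 held TATAAA in at least 1 window. Of 32851 windows of the same length in the reference, 28.3% held GAGGAA and 13.6% held TATAAA. A match is a description of the letters, not of a bound site.

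No immune marker passed the test between genotypes. Signals were compared as log2(signal + 16), a scale on which differences of dim transcripts are understated, and the 40th percentile of the mean, near 21.7 in signal, was the lower limit for testing. Of the 62 probe sets 53 were tested, which covered 35 of the 37 genes. In limma's moderated test 0 of the 53 passed an adjusted p of 0.05 over all 27022 probe sets tested, where 33 of all probe sets, 0.122%, passed. At an unadjusted p under 0.05 there were 6 higher and 5 lower immune probe sets, 11.3% and 9.43% of the 53, beside 3.51% higher and 4.34% lower over all probe sets tested. The transgenic arrays all lay above the wild type arrays for 6 of the 53, 11.3%, beside 5.85% over all, and all below for 2, 3.77%, beside 7.5% over all. Under an unadjusted p of 0.05, C1qb and Cybb each counted with 2 probe sets. Cd8a and Ighm counted only with a dimmer probe set, opposite in sign to their brightest. The shares are thus of probe sets, not of genes. The count at an unadjusted p under 0.05 was 11 in all. It was 1 without wild type replicate 2, 4 without wild type replicate 3 and 6 without transgenic replicate 3. Without wild type replicate 1, transgenic replicate 1 or transgenic replicate 2 it was 8 each time. The 95% interval reached a median of 0.34 to either side of the estimate over these genes, and no interval of the 35 reached 1 log2 unit in either direction.

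**Figure D1:**
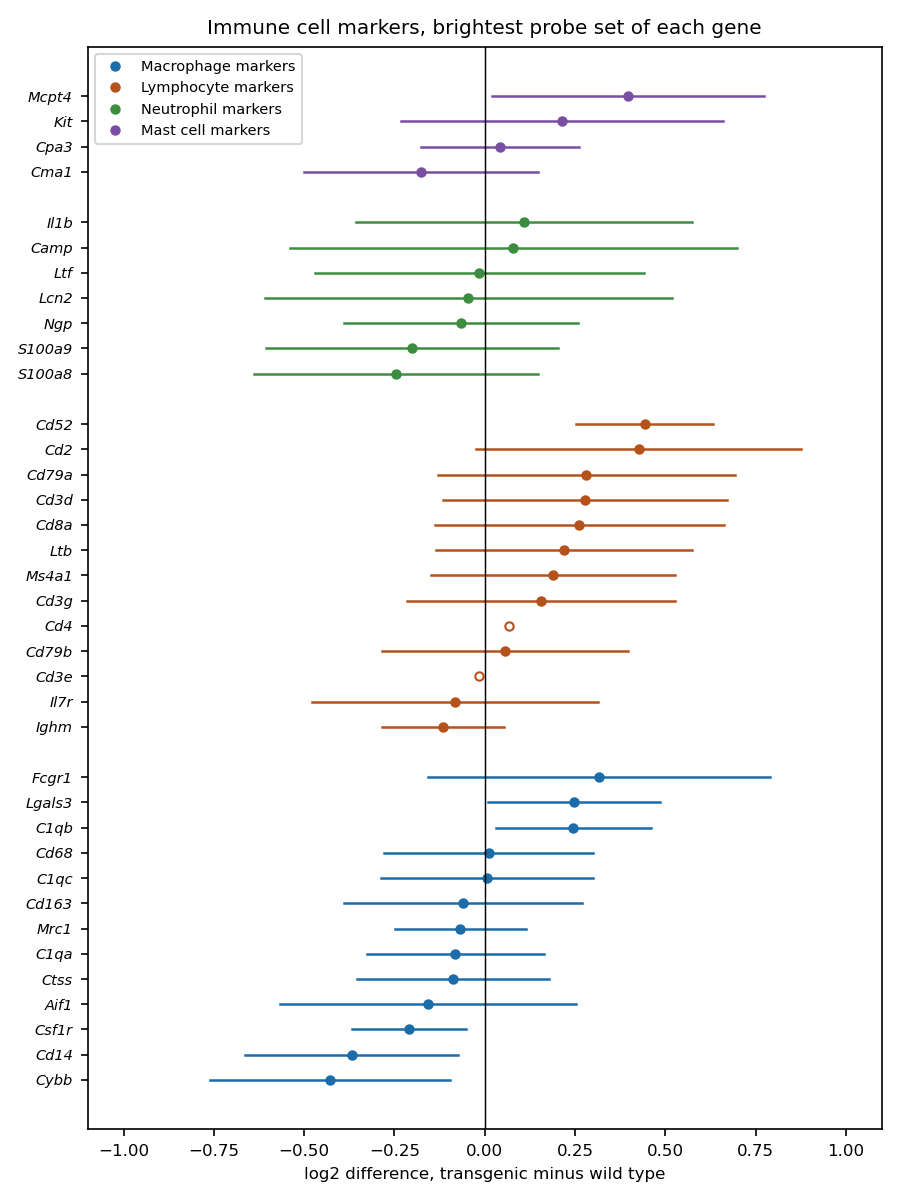
Log2 difference (transgenic minus wild type, log2(signal + 16) scale) of the 37 measured markers, grouped by cell type and ordered by value within a group. Filled points are the estimate with its 95% interval from limma for the 35 genes tested, and the 2 open points are Cd4 and Cd3e, which lay below the filter and have no interval. Of the tested intervals, the one of Cd52, from 0.25 to 0.63, lies farthest from 0.

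The cell types differed in the sign of their middle value, with small sizes throughout. The median log2 difference was -0.07 for macrophage markers, with 5 of 13 genes positive, and 0.19 for lymphocyte markers, with 10 of 13 positive. It was -0.05 for neutrophil markers, with 2 of 7 positive, and 0.13 for mast cell markers, with 3 of 4 positive. Over all 18193 genes the median was -0.01 and 48.2% were positive. The macrophage median was 0.06 without wild type replicate 1, and with equal array medians both it and the neutrophil median were 0.00. Leaving out single arrays moved the neutrophil median from 0.07, without transgenic replicate 3, to -0.18, without transgenic replicate 2. It was -0.11 without wild type replicate 1, -0.03 in hybridisation round 1 and -0.14 in round 2, and 0.00 or -0.01 without wild type replicate 2 or transgenic replicate 1. The lymphocyte median ran from 0.12 to 0.25 over the alternatives tried. These medians are descriptions, and the difference between cell types was not tested.

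**Figure D2:**
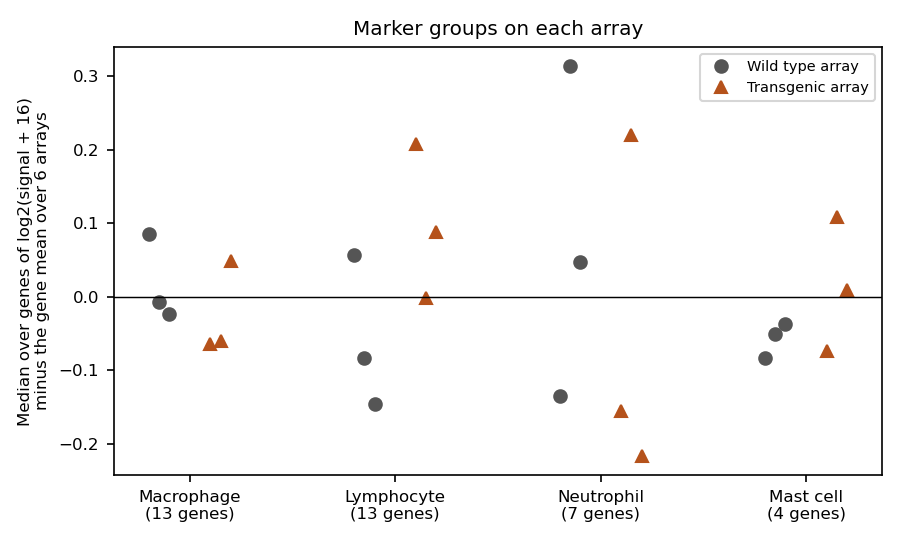
For each array, the median over a cell type's markers of log2(signal + 16) minus the gene's own mean over 6 arrays, with wild type arrays as circles and transgenic arrays as triangles, from replicate 1 on the left of each cluster to 3 on the right. The genotypes overlap in all 4 cell types, and neutrophil markers span the widest range, from -0.22 to 0.31.

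Macrophages were represented by 13 genes, all above the filter, and their values lay on both sides of 0. The colony stimulating factor receptor Csf1r, through which macrophages receive their survival signal, gave 1498, 1623 and 1439 on the wild type arrays and 1348, 1246 and 1342 on the transgenic ones. The highest transgenic array thus lay below the lowest wild type array. The log2 difference was -0.21 and its 95% interval ran from -0.37 to -0.05. In limma the adjusted p was 0.496. Its 2 dimmer probe sets gave -0.05 and -0.09, and their groups overlapped.

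Cybb, the oxidase subunit whose start is shown above, gave 196, 193 and 137 on wild type arrays and 136, 125 and 114 on transgenic ones. The groups did not overlap, by a narrow margin between wild type replicate 3 and transgenic replicate 1. The log2 difference was -0.43, the 95% interval ran from -0.76 to -0.10, and the adjusted p was 0.515. A further Cybb probe set gave -0.48 from 105.5 ± 15.8 to 71.5 ± 17.0 (SD, n = 3), with overlapping arrays, while the dimmest one gave -0.04. Cd14, the co-receptor for bacterial lipopolysaccharide, gave 236, 277 and 282 on wild type arrays and 169.6, 199.99 and 239 on transgenic ones. Here transgenic replicate 3 lay above wild type replicate 1, the log2 difference was -0.37 and the adjusted p was 0.530.

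The chains of complement C1q, which tissue macrophages secrete, did not share a direction. C1qb gave 681, 648 and 645 on wild type arrays and 732, 717 and 913 on transgenic ones. The log2 difference was 0.25 (adjusted p = 0.578). Transgenic replicate 3 was the high array, and the groups did not overlap. The difference was 0.14 without that array, 0.12 in hybridisation round 1 and 0.49 in round 2. A second C1qb probe set also kept the groups apart, at 353 ± 5.70 against 405 ± 4.16 (SD, n = 3), whereas the dimmest one gave a log2 difference of -0.15. The partner chains C1qa and C1qc gave -0.08 and 0.01, and their arrays overlapped, from 550.0 to 766 and from 321 to 479.

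Lgals3, the galectin of activated macrophages, which other cells also make, gave 328, 272 and 264 on wild type arrays and 349.7, 323 and 357 on transgenic ones. Transgenic replicate 2 lay just below wild type replicate 1, the log2 difference was 0.25 and the adjusted p 0.620. Fcgr1, the high-affinity antibody receptor, gave 0.32 on the brighter of its probe sets and -0.26 on the other. The brighter one gave -0.01 in hybridisation round 1 and 0.97 in round 2, which held wild type and transgenic replicate 3. Among the genes above, hybridisation rounds 1 and 2 gave -0.26 and -0.10 for Csf1r, -0.53 and -0.23 for Cybb, -0.44 and -0.22 for Cd14, and 0.16 and 0.42 for Lgals3. The remaining macrophage genes lay close to no difference. The scavenger receptor Cd163 gave -0.06, the mannose receptor Mrc1 -0.07, the lysosomal protein Cd68 0.01, the lysosomal protease Ctss -0.09 and the actin-binding protein Aif1 -0.16, with adjusted p of 0.883 to 0.993. Mrc1 lay between 585 and 677 on all 6 arrays. The summed signal of the 13 macrophage genes was 5628 to 6217 on wild type and 5556 to 6065 on transgenic arrays, which overlapped.

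**Figure D3:**
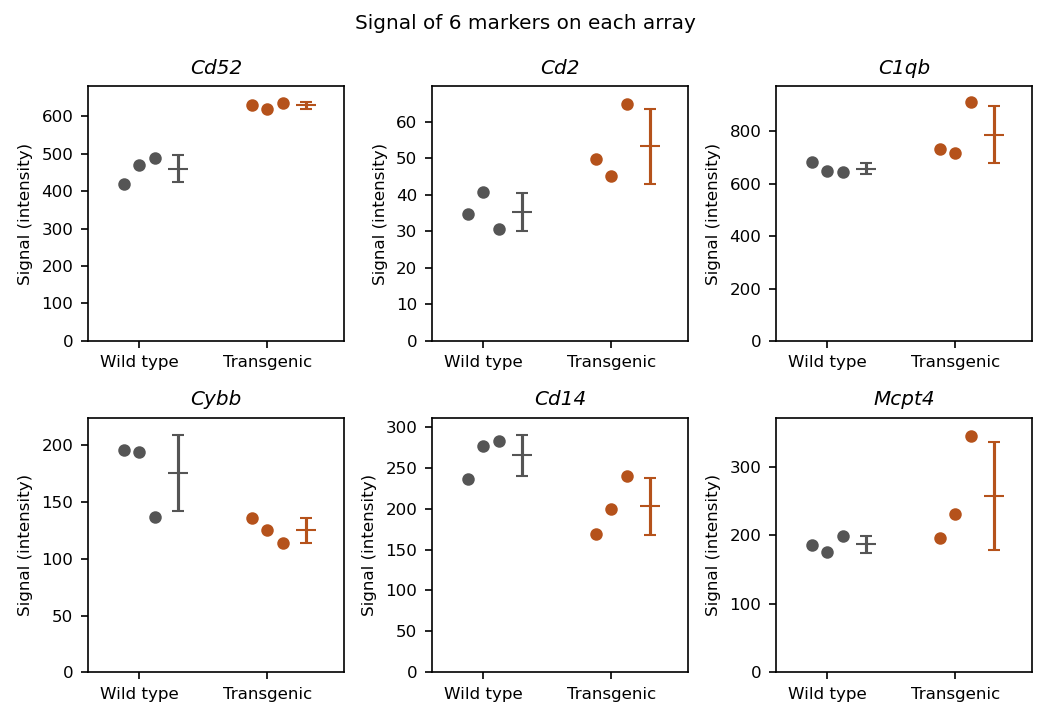
Signal (linear intensity) of 6 markers on each array, with replicates 1 to 3 from left to right in each genotype and the mean with its SD (n = 3) beside the points. Transgenic arrays lie above wild type ones for Cd52, Cd2 and C1qb and below them for Cybb, the arrays of Cd14 and Mcpt4 overlap, and transgenic replicate 3 is the highest array for Cd52, Cd2, C1qb and Mcpt4.

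Lymphocyte markers held the member with the smallest p. Cd52, a small glycoprotein anchored to the surface of lymphocytes and other leukocytes, gave 419.6, 469 and 489 on the wild type arrays and 630.3, 619 and 636 on the transgenic ones. All transgenic arrays lay above all wild type arrays, and they were close to each other, at 628 ± 8.65 against 459 ± 35.8 (SD, n = 3). The fold was 1.36 and the log2 difference 0.44, with a 95% interval from 0.25 to 0.63. In limma the unadjusted p was 0.000306, which became 0.118 after adjustment. The value was 0.48 in hybridisation round 1 and 0.37 in round 2. Over the alternatives the log2 difference ran from 0.37 to 0.51 and the adjusted p from 0.0112 to 0.477, and it passed in 1, where the fluidics module was taken as a random block. In that fit 297 probe sets passed over all. No module held both genotypes, and the consensus correlation was -0.436.

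Other T cell genes gave values mostly above 0, none of which passed. Cd2, an adhesion receptor of T and NK cells, gave 34.8, 40.8 and 30.5 on wild type arrays and 49.8, 45.3 and 64.8 on transgenic ones. The groups did not overlap, and the log2 difference was 0.43, where the 95% interval reached from -0.02 to 0.88 and the adjusted p was 0.660. It was 0.24 in hybridisation round 1 and 0.80 in round 2, which holds replicate 3 of each genotype. For Cd8a, the co-receptor of cytotoxic T cells, the brightest probe set kept the groups apart at 45.9 ± 4.04 against 58.3 ± 6.88 (SD, n = 3), a difference of 0.26. A dimmer Cd8a probe set ran the other way, at -0.74 with an adjusted p of 0.539, and the others tested gave 0.08 and 0.12. The partner chain Cd8b1 kept the groups apart in the opposite direction, at 49.3 ± 2.13 on wild type and 38.4 ± 3.82 on transgenic arrays (SD, n = 3), a difference of -0.27 (adjusted p = 0.789). The CD3 chains, which carry the signal of the T cell receptor, gave values of both signs. Cd3d gave 0.28, or 0.14 to 0.47 as single arrays were left out, and Cd3g gave 0.16, both with overlapping arrays, and Cd3e, below the filter at 10.5 to 37.3, gave -0.02. Cd4, the co-receptor of helper T cells, was likewise below the filter on both probe sets, so that its level cannot be read from these arrays.

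B cell genes gave values of both signs, and none passed. The antigen receptor chains Cd79a and Cd79b gave 0.28 and 0.06, and for Cd79a transgenic replicate 3 was the high array, at 127 where the other 5 arrays lay between 66.3 and 82.7. In hybridisation round 1, which does not hold that array, Cd79a gave 0.09. Ms4a1, the surface protein CD20, gave 0.19. The heavy chain gene Ighm was measured by 11 probe sets, more than any other member, and 6 were tested. The brightest averaged 1107 ± 46.4 without and 1021 ± 73.8 with the transgene (SD, n = 3), a difference of -0.12, while the others tested ran from -0.19 to 0.83. A dim one of these kept the groups apart, at 35.3 ± 2.48 against 45.9 ± 3.48 (SD, n = 3), with an adjusted p of 0.789. The probe set at 0.83 ranged from 3.98 to 78.4, its groups overlapped, and probe sets of immunoglobulin genes can pick up related segments. Of the lymphoid cytokine genes, the lymphotoxin chain Ltb gave 0.22, and the interleukin 7 receptor Il7r gave -0.08.

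Summed over the 13 lymphocyte genes, wild type arrays ran from 2307 to 2455 in signal and transgenic arrays from 2523 to 2607. Without Cd52 the ranges were 1836 to 2036 and 1887 to 1977, and the groups overlapped. Ighm alone, with a difference of -0.12, made up 951 to 1149 of this remaining signal per array. Lymph node tissue was looked at through 6 measured genes of its stroma and vessels, of which 3 lay above the filter. The vessel mucin Glycam1 gave 1044 to 1079 in wild type and 1066 to 1414 in transgenic muscle, with transgenic replicate 1 the highest, and the B cell chemokine Cxcl13 gave 280.1 to 359.7 and 286 to 331. The summed signal of these 6 genes was 1438 to 1537 and 1468 to 1802, and their part in the lymphocyte values was not tested.

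Of the 7 neutrophil genes, 5 were highest in replicate 2 of both genotypes, and no gene kept the genotypes apart. S100a8 gave 199.7, 278 and 254 on the wild type arrays and 187, 273 and 159 on the transgenic ones, and S100a9 gave 189, 295 and 248, then 162, 266 and 204. In each genotype the second replicate was the highest for both chains. The log2 differences were -0.25 and -0.20, with adjusted p of 0.790 and 0.834. For S100a8 the difference was -0.06 in hybridisation round 1 and -0.62 in round 2, and for S100a9 it ran from -0.37 to -0.04 as single arrays were left out. The genotypes overlapped for both chains.

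Of the granule genes, the secretory granule protein Ngp gave 115, 141 and 129 on wild type arrays and 106, 146 and 116 on transgenic ones. The cathelicidin Camp, an antimicrobial peptide, gave 38.1, 61.1 and 31.6, then 37.8, 75.7 and 31.4. Lcn2, the iron-siderophore binding lipocalin, gave 32.7, 58.1 and 26.4, then 37.1, 43.3 and 28.2. All 3 had their peak in the second replicate of each genotype, where the other arrays lay lower. The iron-binding lactoferrin Ltf was highest in wild type replicate 1, at 42.7, and in transgenic replicate 2, at 49.6. Their log2 differences between genotypes were -0.07 for Ngp, 0.08 for Camp, -0.05 for Lcn2 and -0.02 for Ltf. The cytokine Il1b, which macrophages also make, did not share the pattern, and was at 30.9 and 34.6 on the second replicates, the lowest of each genotype. The summed signal of the 7 genes was 648 to 904 on wild type and 610 to 888 on transgenic arrays. The second replicates of both genotypes ran in hybridisation round 1, each in a fluidics module that held no other array, and their part in the pattern was not tested. As a measure of blood, 6 red cell genes had a summed signal of 197 to 294 on wild type and 224 to 295 on transgenic arrays. The brightest, Alas2, the haem synthesis enzyme of red cell precursors, was lowest in wild type replicate 2, at 92.4, and highest in transgenic replicate 2, at 135.

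**Figure D4:**
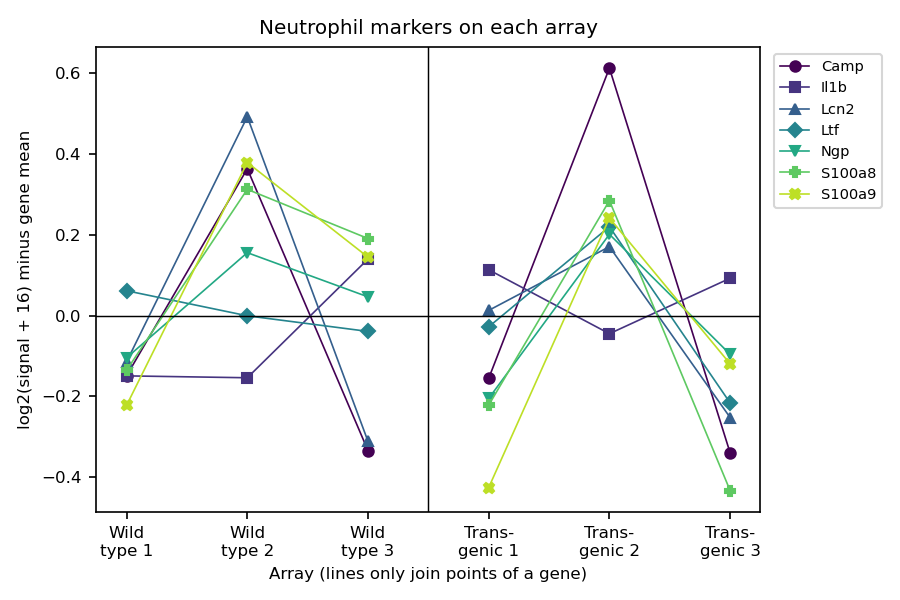
For each of 7 neutrophil markers, log2(signal + 16) on each array minus the gene's own mean over 6 arrays, with lines only to join the points of a gene within a genotype. S100a8, S100a9, Ngp, Camp and Lcn2 peak in replicate 2 of both genotypes, and Il1b is lowest there in both.

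Mast cell genes gave opposed values for 2 granule proteases. Mcpt4, a chymase of connective tissue mast cells, gave 185, 175 and 199 on wild type arrays and 196, 231 and 346 on transgenic ones. Transgenic replicate 3 was far above the rest, and transgenic replicate 1 lay within the wild type range. The log2 difference was 0.40 (adjusted p = 0.612), and it was 0.22 in hybridisation round 1 and 0.75 in round 2. Cma1, a further mast cell chymase, gave 375, 347 and 357, then 245, 403 and 319.6, a difference of -0.18. The carboxypeptidase Cpa3 gave 0.04, and lay between 295 and 351 on all arrays. Kit, the receptor for stem cell factor, which mast cells need to survive, gave 0.21 on its brighter probe set and -0.18 on its dimmer one, and neither exceeded 51.3 on any array. The tryptases Tpsb2 and Tpsab1, outside the 4 markers, gave 0.12 and 0.10.

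**Figure D5:**
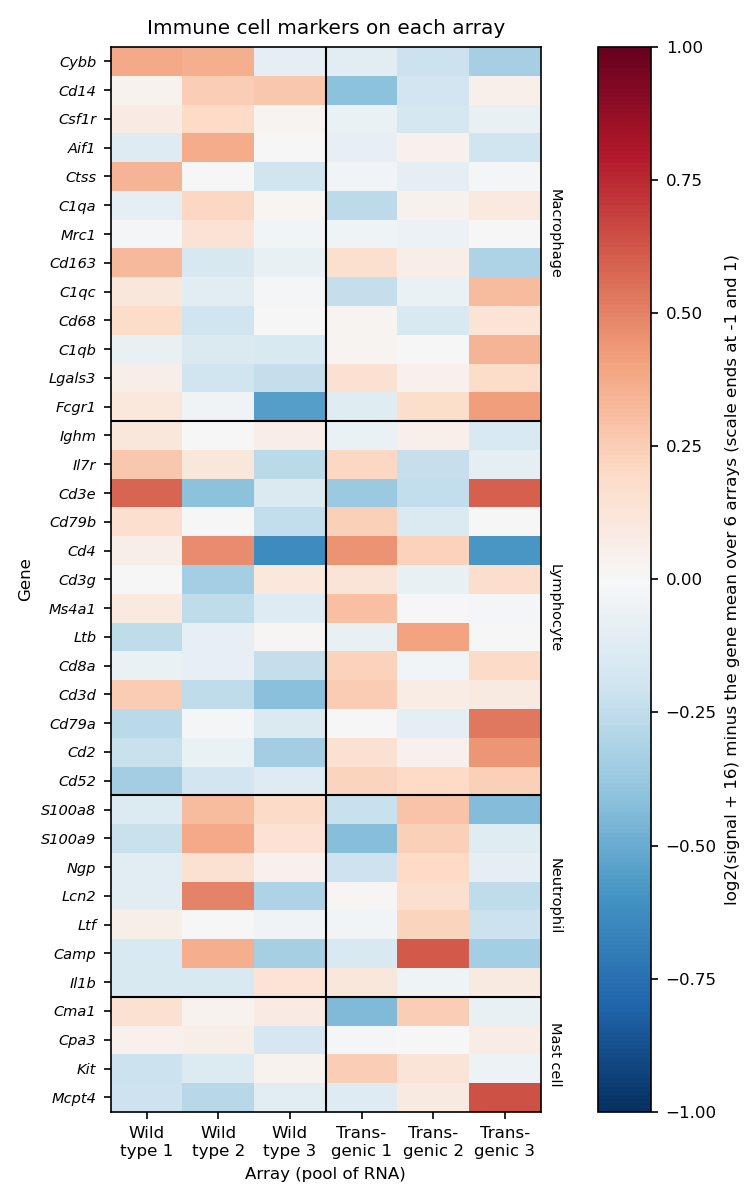
Colour shows log2(signal + 16) minus the gene's mean over 6 arrays for the 37 markers (rows, by cell type) on each array (columns), red above and blue below the mean. Cd52 and Cd2 are red on all 3 transgenic and blue on all 3 wild type arrays, Csf1r is the reverse, and most neutrophil genes are red in replicate 2 of both genotypes.

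Further genes of the same cells were taken from lists of context genes, and a few of those named were chosen after their values were seen. None of these immune probe sets passed the adjusted threshold. Of 30 other macrophage and monocyte genes measured, 9 were positive and 21 negative, with a median log2 difference of -0.06. The chemokine receptors of monocytes gave negative values, with Ccr2 at -0.39, from 106.7 ± 11.8 to 79.1 ± 24.3 (SD, n = 3), and Cx3cr1 at -0.44, from 45.8 ± 8.59 to 30.1 ± 11.3 (SD, n = 3), with adjusted p of 0.660 and 0.717. The arrays of both overlapped, and dimmer Ccr2 probe sets that were tested gave -0.34 and -0.09. The antibody receptors kept the groups apart in opposite directions on their brightest probe sets, with the activating Fcgr3 at -0.24 and the inhibitory Fcgr2b at 0.22 (adjusted p of 0.649 and 0.668). Dimmer Fcgr2b probe sets that were tested gave 0.00, 0.11 and 0.03. Of 12 genes that many kinds of leukocyte express, myeloid ones such as Spi1 and Tyrobp included, 8 were positive and the median was 0.07.

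Other T and NK cell genes gave a median of 0.06 over 19 genes, of which 11 were positive and 8 negative, and other B and plasma cell genes -0.06 over 14. The T cell receptor partner Cd6 gave 7.98, 51.7 and 23.0, then 69.4, 41.9 and 52.5, so that its groups overlapped although the difference was 0.81 (adjusted p = 0.599). In the B cell list the tetraspanin Cd37 gave 76.9, 112 and 103 on wild type arrays and 54.1, 59.98 and 68.0 on transgenic ones. These groups did not overlap, and the log2 difference was -0.55 (adjusted p = 0.418), opposite in sign to Cd79a and Ms4a1. A dimmer Cd37 probe set gave 0.27. Other neutrophil and granule genes were mostly dim, with 7 of 12 above the filter, and gave a median of 0.16, or 0.07 over the 7 that were tested. Of these 12 genes, 8 were positive and 4 negative. Prtn3, a protease of primary granules, gave 54.5, 47.8 and 54.4 on wild type arrays and 32.3, 17.8 and 25.8 on transgenic ones. Its log2 difference was -0.74 (adjusted p = 0.388). Mmp9, the brightest of the list, gave 0.38 with overlapping arrays (adjusted p = 0.679). Ctsg, below the filter and not tested, gave 0.75, from 6.66 ± 4.42 to 21.7 ± 3.70 (SD, n = 3). Of 12 other mast cell and basophil genes 4 lay above the filter, and the median was 0.12, or 0.02 over those 4.

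The signals that recruit and feed these cells were covered by 23 genes of chemokines, cytokines and growth factors, of which 17 were positive. The median was 0.15, or 0.12 over the 19 genes above the filter. Kitl, the stem cell factor that Kit binds, gave 558, 555 and 459 on wild type arrays and 594, 602 and 670.3 on transgenic ones. The groups did not overlap, and the log2 difference was 0.25 (adjusted p = 0.580). Its dimmer probe sets gave -0.05, -0.20 and 0.01, and their arrays overlapped. Of the Csf1r ligands, Csf1 gave 0.12 on the brightest of its probe sets and -0.07, -0.08 and -0.02 on the others, and Il34 gave -0.30. Cxcl9, a T cell chemokine induced by interferon, gave 36.3, 54.1 and 48.2, then 58.4, 136 and 61.4, a difference of 0.63 (adjusted p = 0.599). Transgenic replicate 2 was the high array, and the groups did not overlap.

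Markers of other cells were set beside the immune ones. All 5 endothelial genes were negative, with a median of -0.24 and a summed signal of 1321 to 1439 on wild type and 1147 to 1250 on transgenic arrays, and 5 of 6 fibroblast genes were negative, with a median of -0.07. Of 4 adipocyte genes measured, 2 were positive, and the median was 0.05. Their summed signal overlapped, at 5362 to 6446 on wild type and 5421 to 6136 on transgenic arrays. The 10 fibre genes had a median of -0.11 and a summed signal of 155600 to 157820 in wild type and 143860 to 150780 in transgenic muscle. Fibre genes such as Acta1 lay near the top of the signal scale. The highest signal of an array was itself 23547.1 to 23952.5 on wild type and 21385.5 to 22468.8 on transgenic arrays. The part of these other cells in the immune values was not tested.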

How the data were processed

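Each of 6 Affymetrix Mouse430_2 arrays carried RNA pooled from 6 animals, 3 arrays per genotype, taken as replicates by their titles. The spread behind each p-value is that between pools. The authors deposited 1 linear intensity for each probe set, and the submitters' processing notes name GCOS 1.1.1. Trimmed by 2% at each end, the mean was 149.0 to 149.1 on every array, so the values cannot show a change common to most transcripts. Deposited run information gave 4 fluidics modules and the time of day at which each hybridisation started. Arrays with start times close together were grouped here into 2 hybridisation rounds, without use of the date.

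Of 45101 rows, 64 were controls and not used, 34945 carried 1 symbol, 932 several and 9160 none. Symbols are those of the array's annotation, brought up to date with RefSeq's GRCm38.p6 table. On log2(signal + 16), the 27022 probe sets whose mean exceeded the 40th percentile entered a limma 3.58.1 fit (R 4.3.3) with an intensity trend, no covariates, two-sided tests and Benjamini-Hochberg adjustment, tested on simulated data.

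Members and lists were chosen with earlier results of these data known. Array values are given for up to 5 members per cell type with the smallest p, bright members and genes whose probe sets disagree in sign by more than 0.3. At most 3 genes are named per context list, besides those chosen after their values were seen (Csf1 and Il34, the tryptases, Cx3cr1, Cd8b1, Fcgr2b, Mmp9, Ctsg). Alternatives were other offsets, normalizations, filters, variance models, array weights, leaving out each array, and blocks for replicate, round and module.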

Additional observations from a re-analysis of the deposited data

How the results depend on the processing

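The number of arrays limits the precision, and signals near the filter carry little information about their transcripts. The count over all probe sets was 33, and it was 51 with equal array medians, 17 with no filter, 1 without the intensity trend and 297 with the fluidics module taken as random block. Leaving out 1 array in turn gave 18 to 39, of which 19 and 18 were those that lacked replicates 1 and 2 of the wild type. For immune markers it was 0 of 53 as reported and 0 in every alternative that gave a test other than the module block, which called 1, the Cd52 probe set. Leaving out 1 array gave 0 throughout. The macrophage median of -0.07 was 0.0031 with equal array medians, -0.1417 in hybridisation round 1 alone and 0.0803 in round 2 alone, and it ran from -0.10 to 0.061 when 1 array was left out. The mast cell median of 0.13 was 0.0289 where all probe sets of a gene were averaged. The cause of these moves was not tested. The lymphocyte and neutrophil medians moved by less than their own spread between arrays, an SD of 0.10 and 0.23. For macrophage and mast cell markers this SD was 0.06 and 0.07, so smaller moves exceeded it. The neutrophil median still changed sign. It ran from -0.18 to 0.07 when 1 array was left out, a wider range than that of the macrophage median. Of 37 members, 16 kept their sign in all 20 alternatives and 21 changed it in at least 1. The other filters, the fit without the intensity trend and the blocks for replicate and round cannot change a gene's log2 difference. A sign kept in those alternatives is no sign of stability. Deviations of same-numbered arrays correlated at 0.00295, 0.0601 and 0.0492, and those of differently numbered arrays at -0.0781 to 0.0239. All of these were small, and whether replicate numbers pair the arrays was not tested. With the replicate number as a block 36 probe sets were called over all and 0 immune ones.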
